A study of Mus musculus with 9 samples.

Results

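The comparison described here sets the 2 libraries of CD11b+ cells from glioma-bearing mice given anti-PD-1 alone (anti-PD-1) against the 2 libraries from control mice (CTR), chosen by their column names. These are 4 of the 9 libraries of the series. Every protein-coding gene with enough counts was compared, 12538 of 21890. All mice were male C57BL/6J, 10 to 12 weeks old at the start, and carried intracranial GL261 glioma cells expressing luciferase and tdTomato (80000 cells implanted). The anti-PD-1 mice received 4 intraperitoneal doses of the antibody, each of 2.5 mg/kg, between days 8 and 14. CTR mice received saline by gavage, and no isotype antibody is named for them. CD11b+ cells were sorted by flow cytometry from the tumor-bearing hemispheres on day 28 by the study's methods, or day 21 by its figure legend. For replicate 2 of anti-PD-1 the label gives the antibody as anti-PD-2, and the library was grouped by its title. The other 5 libraries (2 OAT-1746, an arginase inhibitor at 50 mg/kg, and 3 COMB, both agents) enter only where named.

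PD-1 is an inhibitory receptor of activated T cells and NK cells, and myeloid cells can carry it too. Its ligands PD-L1 and PD-L2 sit on tumor cells, macrophages and dendritic cells, and their engagement recruits phosphatases that dampen antigen receptor signals. Most cells sorted by CD11b from a brain tumor are microglia and blood-derived macrophages, which respond to interferons and other products of lymphocytes.

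Counted read pairs came to 17490386 and 17729568 in CTR replicates 1 and 2, and to 14356928 and 18796479 in anti-PD-1 replicates 1 and 2. The sorted identity was visible in all 4 libraries. Itgam, which encodes CD11b, measured 302 and 370 CPM (read pairs scaled to the size of the library, normalized by the TMM method throughout) in CTR and 294 and 327 in anti-PD-1. Csf1r, the receptor for the macrophage growth factor CSF1, measured 6300 and 7840 in CTR and 7280 and 7200 in anti-PD-1. Over all tested genes, the libraries of a group were about as close to each other as to those of the other group. Pearson's r across genes, which are not independent replicates, was 0.979 between the CTR libraries and 0.98 between the anti-PD-1 libraries. CTR replicate 1 had an r of 0.974 with anti-PD-1 replicate 1 and 0.985 with replicate 2, and CTR replicate 2 an r of 0.975 and 0.979.

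Across the transcriptome, the shift in the anti-PD-1 libraries was small. Higher in both anti-PD-1 libraries than in both CTR libraries were 27 of 33 type I interferon-stimulated, 16 of 29 monocyte and macrophage and 25 of 29 NK cell genes. Lower in both were 25 of 47 S phase and 37 of 57 G2/M phase genes. The NK cell count can be partly set by the low-count filter, as described below. The median log2 fold change (anti-PD-1 minus CTR) was 0.02. edgeR called 0 of 12538 genes at an adjusted p under 0.05, or 0%. No adjusted p fell below 0.951. Before adjustment, 642 genes had a p under 0.05, of which 399 (3.18%) were higher and 243 (1.94%) lower. DESeq2 called 14 genes (0.112%), all 14 higher in anti-PD-1. Without a filter on low counts, an alternative chosen after seeing the data, DESeq2 called 9. Both anti-PD-1 libraries lay above both CTR libraries for 2588 genes (20.6%) and below them for 2122 (16.9%), and these shares are the background for gene groups below where all 4 libraries are compared. Leaving out single libraries moved the counts at an unadjusted p under 0.05, as given below under the dependence on processing. Both the higher and the lower genes were fewest when anti-PD-1 replicate 1 was the library left out. An exact two-sided permutation test of 2 against 2 libraries cannot give a p below 0.333. The study's methods call the replicates biological.

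**Figure D1:**
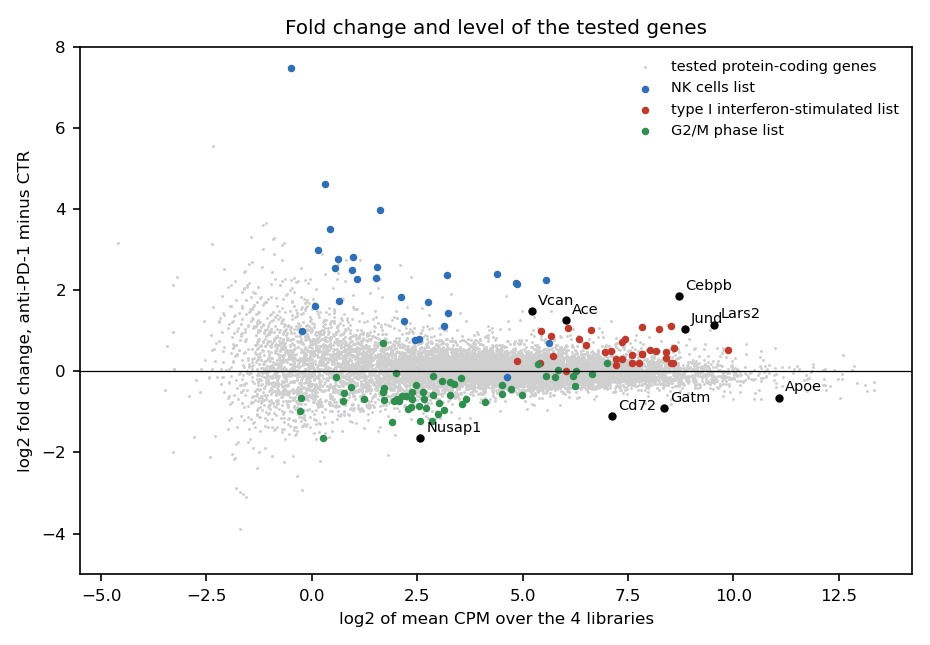
Log2 fold change (anti-PD-1 minus CTR) against the log2 of the mean CPM over the 4 libraries for the tested protein-coding genes (grey), with the NK cell, type I interferon-stimulated and G2/M phase lists in color and a few genes of the text named. The interferon-stimulated points lie above 0 and most G2/M points below it.

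Of the 14 genes that DESeq2 called, 9 belong to the NK cell list (29 genes) and 5 do not: Cebpb, Jund, Adnp, Ikzf3 and Gimap3. The most abundant of the 5 were transcription factors of myeloid and stress responses. Cebpb encodes C/EBPβ, a factor of macrophage activation and emergency granulopoiesis, and lies at chr2:167688915-167690418 (GRCm38). It measured 233 and 133 CPM in CTR and 557 and 756 in anti-PD-1. The lower anti-PD-1 library thus exceeded the higher CTR library by more than the CTR libraries differed. The log2 fold change was 1.85 ± 0.37 (SE, n = 2 per group). Its adjusted p was 0.0101 in DESeq2 and 0.0111 in DESeq2 without the low-count filter, and 0.301 to 1 over the edgeR and voom settings. The 3 COMB libraries, from mice that also received the antibody, measured 357, 455 and 537 CPM of Cebpb, and the OAT-1746 libraries 180 and 93.7. All 3 COMB libraries lay above both CTR libraries, although the comparisons share the CTR libraries and no difference between them was tested here.

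Jund, at chr8:70698949-70700616, encodes the AP-1 subunit JunD. It measured 322 and 282 CPM in CTR and 521 and 721 in anti-PD-1, with a log2 fold change of 1.04 ± 0.21 and a DESeq2 adjusted p of 0.0102 (0.0137 without the low-count filter, 0.316 to 1 over the edgeR and voom settings). For Jund the COMB libraries, at 312, 285 and 318, lay within the CTR range, unlike the OAT-1746 libraries at 555 and 726. Adnp, a chromatin-associated homeobox protein, was much scarcer at 2.22 and 1.47 CPM in CTR and 7.39 and 5.86 in anti-PD-1. Its log2 fold change was 1.84 ± 0.39 and its DESeq2 adjusted p 0.0366, which became 0.0571 without the low-count filter. Over the edgeR and voom settings that of Adnp ran from 0.364 to 1.

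The lymphoid genes of the 5 were scarce, with no more than 20 counts in either CTR library. Ikzf3 (Aiolos, a lymphocyte transcription factor) measured 0.541 and 0.353 CPM in CTR and 3.76 and 2.31 in anti-PD-1, with a log2 fold change of 2.74 ± 0.58 and a DESeq2 adjusted p of 0.0393. Gimap3, a GTPase of lymphocyte survival, measured 0.901 and 1.18 in CTR and 7.32 and 2.87 in anti-PD-1 (2.28 ± 0.51, DESeq2 adjusted p 0.0463). Neither was called without the low-count filter, where the values were 0.0714 for Ikzf3 and 0.0722 for Gimap3. Over the edgeR and voom settings, Ikzf3 ranged from 0.316 to 1 and Gimap3 from 0.364 to 1.

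Among genes of at least 5 CPM with an unadjusted p under 0.05 and no overlap between the groups, 268 were higher and 194 lower. The 15 with the largest fold change in each direction are described next. They were picked for their separation, so the separation itself is no result, and none was called by edgeR (adjusted p 0.951). In the upward direction, NK cell genes were set aside, 8 of which would have ranked above the fifteenth place.

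**Figure D2:**
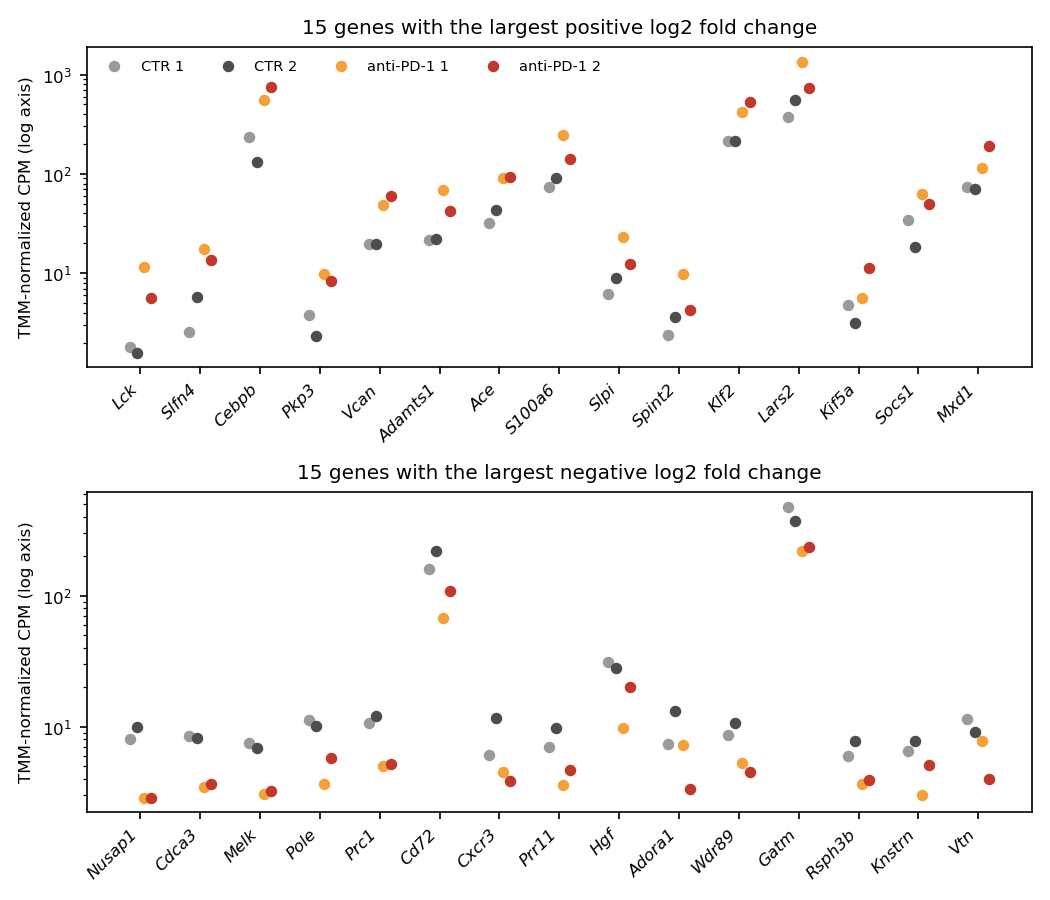
TMM-normalized CPM (log axis) of the 15 genes with the largest positive and the 15 with the largest negative log2 fold change among those meeting the selection rule, 1 point per library. The rule selected genes whose groups do not overlap. Within a group the replicates still differ, as for Lck and Hgf.

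The higher genes held monocyte and matrix genes, inhibitors of proteases and cytokine signals, and transcription factors. Vcan, the proteoglycan versican of classical monocytes, measured 19.6 and 19.6 CPM in CTR and 49.1 and 60.5 in anti-PD-1 (log2 fold change 1.48 ± 0.57). Ace, angiotensin-converting enzyme, which marks nonclassical monocytes, measured 32.4 and 43.8 in CTR and 90.6 and 93.9 in anti-PD-1 (1.27 ± 0.42). S100a6, a calcium-binding protein, measured 73.4 and 91.4 in CTR and 246 and 141 in anti-PD-1 (1.23 ± 0.52). For Vcan and Ace the anti-PD-1 replicates stood close together, and for S100a6 replicate 1 stood well above replicate 2.

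Adamts1, a secreted metalloproteinase that cleaves versican, measured 21.7 and 22 CPM in CTR and 69.4 and 41.9 in anti-PD-1 (1.35 ± 0.37). The protease inhibitor Slpi measured 6.13 and 9 in CTR and 23.2 and 12.3 in anti-PD-1 (1.23 ± 0.41). Spint2, another protease inhibitor, measured 2.4 and 3.65 in CTR and 9.76 and 4.28 in anti-PD-1 (1.2 ± 0.42). In these 3 genes anti-PD-1 replicate 1 was the highest library.

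Klf2, a transcription factor that restrains myeloid activation, measured 216 and 212 CPM in CTR and 422 and 529 in anti-PD-1 (1.15 ± 0.38). Mxd1, an antagonist of MYC, measured 73.3 and 70.6 in CTR and 114 and 191 in anti-PD-1 (1.08 ± 0.45). Both had nearly equal CTR libraries, and the anti-PD-1 libraries were further apart for Mxd1 than for Klf2. Lars2, the mitochondrial leucyl-tRNA synthetase, measured 377 and 556 in CTR and 1350 and 725 in anti-PD-1 (1.15 ± 0.47). Cebpb is described above and Socs1 below. The remaining 4 were scarce: Lck (2.33 ± 0.64), Slfn4 (1.9 ± 0.84), Pkp3 (1.56 ± 0.52) and Kif5a (1.09 ± 0.36), each below 20 CPM in every one of the 4 libraries. Lck, the kinase of T and NK cell receptors, measured 1.8 and 1.59 in CTR and 11.5 and 5.64 in anti-PD-1.

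Of the 15 lowest, Nusap1, Cdca3, Melk, Pole, Prc1, Prr11 and Knstrn act in DNA replication or mitosis and are taken up below, although of these only Nusap1 and Cdca3 are in the S or G2/M phase lists. The most abundant of the others was Gatm, which converts arginine and glycine to the creatine precursor guanidinoacetate. It measured 481 and 372 CPM in CTR and 220 and 237 in anti-PD-1 (log2 fold change -0.90 ± 0.31). Cd72, an inhibitory C-type lectin of B cells and macrophages, measured 159 and 221 in CTR and 67.8 and 109 in anti-PD-1 (-1.11 ± 0.46). Hgf, hepatocyte growth factor, measured 31.1 and 27.9 in CTR and 9.76 and 19.9 in anti-PD-1 (-0.99 ± 0.40). For Gatm the anti-PD-1 replicates stood close together, and for Cd72 and Hgf replicate 1 was the lowest of the 4 libraries. Cxcr3, the receptor for CXCL9 and CXCL10, measured 6.07 and 11.7 in CTR and 4.46 and 3.83 in anti-PD-1 (-1.10 ± 0.38). The remaining genes were Adora1 (-0.98 ± 0.40), Wdr89 (-0.97 ± 0.22), Rsph3b (-0.85 ± 0.28) and Vtn (-0.82 ± 0.29), none above 13.1 CPM in any of the 4 libraries.

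Type I interferons act through the receptor IFNAR and transcription factors that bind interferon-stimulated response elements in their target genes. Of 33 tested genes of the type I interferon-stimulated list, 27 lay higher in both anti-PD-1 libraries than in both CTR libraries and 0 lay lower. That is 81.8%, against 20.6% of all tested genes. The median log2 fold change was 0.48, and it was nearly the same in each anti-PD-1 library against the CTR mean (0.50 in replicate 1 and 0.51 in replicate 2). The summed level of the list was 5286 and 6090 CPM in CTR and 8129 and 8248 in anti-PD-1. The COMB libraries, at 4464 to 4747, lay below both CTR libraries.

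Isg15, a ubiquitin-like modifier, measured 215 and 248 CPM in CTR and 549 and 454 in anti-PD-1 (log2 fold change 1.11 ± 0.65). Ifit3, a partner of the RNA sensor IFIT1, measured 128 and 162 in CTR and 376 and 241 in anti-PD-1 (1.09 ± 0.53). Rsad2, the antiviral enzyme viperin, measured 165 and 228 in CTR and 462 and 352 in anti-PD-1 (1.05 ± 0.79). Each of these was at its highest in anti-PD-1 replicate 1. The exonuclease Isg20 measured 28.4 and 59 in CTR and 109 and 75.5 in anti-PD-1 (1.08 ± 0.81). Irf7, the factor that amplifies interferon production, measured 626 and 918 in CTR and 1130 and 1100 in anti-PD-1 (0.53 ± 0.71). Not every member was higher in both libraries. Ifi44 measured 39.4 and 40 in CTR and 25.4 and 66.2 in anti-PD-1 (0.21 ± 0.60).

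**Figure D3:**
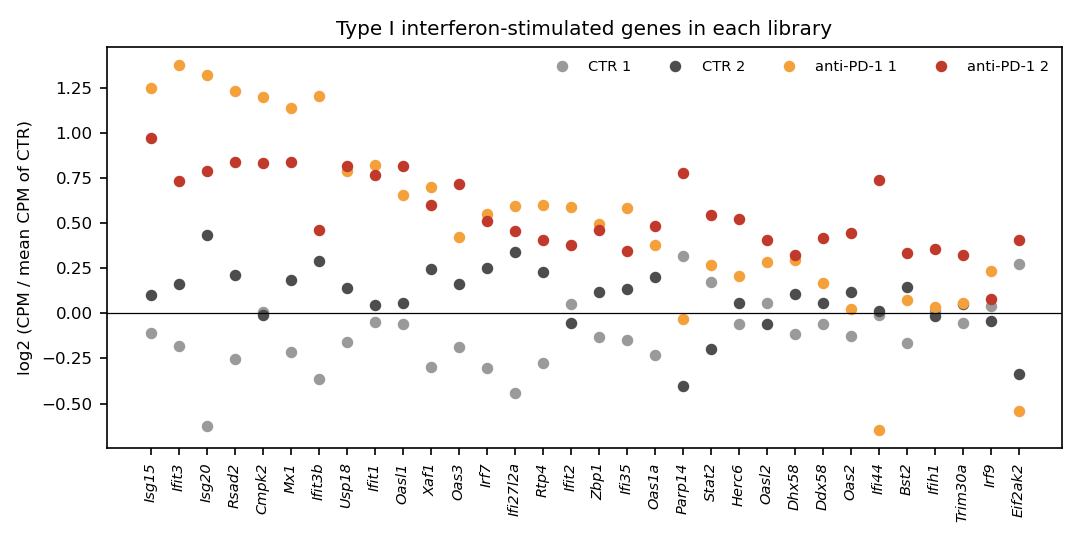
Log2 ratio of the CPM in each library to the mean CPM of the 2 CTR libraries for tested genes of the type I interferon-stimulated list (1 gene is not drawn), ordered by fold change. For 27 of them both anti-PD-1 points lie above both CTR points.

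None of the 33 had an unadjusted p under 0.05 in the fit of all 9 libraries, in which every group contributes to the spread. The OAT-1746 libraries differed from each other in these genes, with summed levels of 5874 and 1630 CPM. In a fit without the OAT-1746 libraries, 18 of the 33 were higher at an unadjusted p under 0.05, against 4.17% of all tested genes. In a fit of only the anti-PD-1 and CTR libraries it was 17 of 33, against 4.04%. None passed the adjusted threshold in either, and the smallest adjusted p in the list was 0.301 and 0.405.

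The promoters of this list were searched for the interferon-stimulated response element, GAAA followed by any 2 bases and GAAA again, on both strands in the 250 bases before the gene's start (RefSeq, GRCm38.p6, 1 start per gene). This was 1 of 4 motifs searched in 5 gene lists, all chosen with the list values known. Of the 33 genes 24 had a promoter entry, and 10 of these 24 (41.7%) held the motif, against 821 of 27025 promoters overall (3.04%). The list was made of known interferon targets, so this share describes the list and not the comparison of the groups. The motif is not particular to this list, as given below for genes induced by interferon-γ. A gamma-activated site, described below, was in 5 of the 24 (20.8%), against 7.18% of all promoters. The promoters of Isg15, Ifit3 and Rsad2 are shown because these are among the 4 highest members of the list, with the motif in capitals. Each is 120 bases on the gene's strand, from chr4:156200819-156200938 (minus strand), chr19:34583347-34583466 (plus strand) and chr12:26456453-26456572 (minus strand). Isg15 has 3 overlapping matches, Ifit3 2 and Rsad2 1. The window of Isg20 held no match.
Isg15: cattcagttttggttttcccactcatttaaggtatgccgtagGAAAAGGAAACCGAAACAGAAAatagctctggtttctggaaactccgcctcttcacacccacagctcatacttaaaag
Ifit3: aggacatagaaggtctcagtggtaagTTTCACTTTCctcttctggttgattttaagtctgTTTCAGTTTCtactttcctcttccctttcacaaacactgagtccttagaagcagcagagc
Rsad2: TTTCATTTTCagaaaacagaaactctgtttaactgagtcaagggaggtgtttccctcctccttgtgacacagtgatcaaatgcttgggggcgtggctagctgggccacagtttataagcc

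Interferon-γ, made by NK and T cells, acts on many genes through gamma-activated sites in their promoters. Of 30 tested genes induced by it, 14 (46.7%) lay higher in both anti-PD-1 libraries and 0 lower, with a median log2 fold change of 0.37. The anti-PD-1 libraries differed here. The median against the CTR mean was -0.07 in replicate 1 and 0.60 in replicate 2. Ifng itself was near its detection limit, at 0.24 and 0.176 CPM in CTR and 0.836 and 0.225 in anti-PD-1.

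Igtp, an interferon-inducible GTPase, measured 153 and 138 CPM in CTR and 288 and 250 in anti-PD-1 (log2 fold change 0.89 ± 0.32). Tgtp1, of the same family, measured 27.2 and 23.3 in CTR and 51.8 and 50 in anti-PD-1 (1.01 ± 0.71). Socs1, the feedback inhibitor of JAK kinases, measured 34.1 and 18.6 in CTR and 62.4 and 49.3 in anti-PD-1 (1.08 ± 0.46). These 3 were higher in both anti-PD-1 libraries. The T cell chemoattractant Cxcl10 was too, at 413 and 319 in CTR and 554 and 605 in anti-PD-1 (0.66 ± 0.44). Cxcl9 was not, at 1360 and 917 in CTR and 530 and 1080 in anti-PD-1 (-0.50 ± 0.65).

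Of the 30 genes 19 had a promoter entry. A gamma-activated site, spelled TTCNNNGAA, was in 9 of these (47.4%) against 7.18% of all promoters, and the interferon-stimulated response element in 12 (63.2%). Here too the shares describe a list of known targets and not the comparison of the groups. Igtp and Tgtp1 are shown as the members with the largest fold change after Nos2 and Socs1 among those of at least 5 CPM, with the gamma-activated site in capitals. Each is 120 bases on the gene's strand, from chr11:58199436-58199555 (plus strand) and chr11:48992247-48992366 (minus strand). The corresponding window of Socs1 held no such site.
Igtp: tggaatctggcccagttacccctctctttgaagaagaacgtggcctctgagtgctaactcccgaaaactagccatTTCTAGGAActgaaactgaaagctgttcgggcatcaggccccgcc
Tgtp1: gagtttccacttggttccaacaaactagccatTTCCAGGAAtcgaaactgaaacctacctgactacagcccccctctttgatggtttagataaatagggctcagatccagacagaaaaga

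Genes of infiltrating monocytes and macrophages leaned higher as well. So did NK cell genes (25 of 29, 86.2%) and cytotoxic effectors (9 of 15, 60%), against 20.6% of all tested genes. The NK cell and cytotoxic lists share members, among them Prf1, Nkg7, Gzma and Gzmb, and are not separate results. Of 29 tested monocyte and macrophage genes, 16 (55.2%) lay higher in both anti-PD-1 libraries and 1 lower. At an unadjusted p under 0.05, 5 were higher, against 3.18% of all tested genes. The median log2 fold change was 0.56, and it was 0.34 without anti-PD-1 replicate 1 and 0.36 without CTR replicate 1. It was 0.76 without CTR replicate 2 and 0.66 without anti-PD-1 replicate 2. The number of these genes higher at an unadjusted p under 0.05 was 13 in a fit without the OAT-1746 libraries, against 4.17% of all tested genes. In a fit of only the anti-PD-1 and CTR libraries it was 14, against 4.04%. None passed an adjusted p under 0.05 in either fit. Plac8, a cysteine-rich protein of blood monocytes, measured 345 and 578 CPM in CTR and 1010 and 843 in anti-PD-1 (1.01 ± 0.77). Ly6c2, which defines classical monocytes, measured 303 and 692 in CTR and 716 and 869 in anti-PD-1 (0.67 ± 0.97). The CTR libraries themselves differed more than 1.5-fold in Plac8 and Ly6c2. Ccr2, the monocyte receptor for CCL2, was the member lower in both, at 337 and 377 in CTR and 278 and 304 in anti-PD-1 (-0.29 ± 0.47). In bulk RNA, more monocytes in the sort and more of these transcripts per cell cannot be told apart.

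The summed level of the monocyte list separated the groups less than the counts did, at 11470 and 10890 CPM in CTR and 11820 and 13160 in anti-PD-1. Its most abundant gene per kilobase, Tgfbi, overlapped between the groups, at 5700 and 4300 in CTR and 3090 and 4820 in anti-PD-1. Only anti-PD-1 replicate 1 lay below both CTR libraries. Homeostatic microglia genes did not separate the groups. Of 25 tested, 1 lay higher in both and 0 lower, with a median log2 fold change of 0.08. This rested on CTR libraries that differed. With CTR replicate 1 left out, 17 of the 25 (68%, against 32.2% of all tested genes) were lower in both anti-PD-1 libraries than in CTR. With CTR replicate 2 left out, 24 (96%, against 37.5%) were higher. P2ry12, the microglial ADP receptor, measured 1380 and 2310 in CTR and 1800 and 1530 in anti-PD-1, and Tmem119 1440 and 2510 against 2180 and 1980. For both genes the anti-PD-1 libraries fell between the CTR libraries. Genes of border-associated macrophages (2 higher and 3 lower of 17) and neutrophils (1 and 0 of 16) were close to or below the background on both sides. These counts also rested on CTR libraries that differed. With CTR replicate 1 left out, 11 of 17 (64.7%) and 10 of 16 (62.5%) were lower, against 32.2%. With CTR replicate 2 left out, 8 of 17 (47.1%) and 11 of 16 (68.8%) were higher, against 37.5%.

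Some chemokine and cytokine genes were higher in both anti-PD-1 libraries. For the CC chemokine ligands the count was at the background, with 3 of 14 (21.4%), or 6 (42.9%, against 22.8% of all tested genes) when scaled by library size only. Of 27 cytokines 9 (33.3%) were higher in both, or 10 with that scaling. Ccl2, which attracts monocytes, measured 120 and 107 CPM in CTR and 175 and 184 in anti-PD-1 (log2 fold change 0.66 ± 0.29). Ccl5, which attracts T cells and NK cells and is made by them, measured 149 and 109 in CTR and 268 and 191 in anti-PD-1 (0.83 ± 0.42). Il15, the growth factor of NK cells and memory T cells, measured 8.53 and 11.6 in CTR and 21.6 and 16.1 in anti-PD-1 (0.90 ± 0.25). Il18, which drives interferon-γ production with IL-12, measured 18.8 and 26.8 in CTR and 38.2 and 28.3 in anti-PD-1 (0.54 ± 0.28). Il15 and Il18 were thus both highest in anti-PD-1 replicate 1. Il6 was scarcer, at 3.78 and 4.65 in CTR and 6.13 and 8.06 in anti-PD-1 (0.75 ± 0.26). Tnf did not separate, at 123 and 151 in CTR and 95 and 150 in anti-PD-1 (-0.16 ± 0.23).

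Immediate early genes were higher in both anti-PD-1 libraries for 9 of 25 (36%) and lower for 1. The median was -0.05 in replicate 1 and 0.60 in replicate 2 against the CTR mean, so the shift came mostly with replicate 2. Atf3, a stress-induced repressor, measured 367 and 256 CPM in CTR and 419 and 616 in anti-PD-1 (log2 fold change 0.73 ± 0.35). Egr3, the member lower in both, measured 13.9 and 8.88 in CTR and 3.69 and 7.72 in anti-PD-1 (-0.99 ± 0.54). Among 26 NF-κB subunits, inhibitors and targets, 9 (34.6%) were higher and 3 lower. Here too the medians differed, at -0.06 in replicate 1 and 0.35 in replicate 2. Nfkbia, the inhibitor IκBα that NF-κB induces, measured 472 and 561 in CTR and 781 and 732 in anti-PD-1 (0.55 ± 0.20). Of 13 heat shock genes 5 (38.5%) were higher and 0 lower, with medians of 0.09 in replicate 1 and 0.47 in replicate 2. Hspa1a measured 24.9 and 8.23 in CTR and 33.7 and 60.1 in anti-PD-1 (1.5 ± 0.75), with a 3-fold difference between the CTR libraries.

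Many proliferation genes lay lower. In the G2/M phase list, 37 of 57 tested genes (64.9%) were lower in both anti-PD-1 libraries than in both CTR libraries, against 16.9% of all tested genes, and 3 were higher. At an unadjusted p under 0.05, 9 were lower, against 1.94% of all tested genes, and 0 higher. The median log2 fold change was -0.59. In the S phase list, 25 of 47 (53.2%) were lower and 1 higher, 3 were lower at an unadjusted p under 0.05, and the median was -0.39. Both shifts were larger in anti-PD-1 replicate 1, at -0.80 for G2/M and -0.63 for S phase against the CTR mean, than in replicate 2, at -0.32 and -0.13. Without anti-PD-1 replicate 1 the fitted medians were -0.33 and -0.14. That of S phase was -0.24 without CTR replicate 1 and -0.65 without anti-PD-1 replicate 2.

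Nusap1, which bundles spindle microtubules, measured 8.05 and 9.88 CPM in CTR and 2.86 and 2.87 in anti-PD-1 (log2 fold change -1.64 ± 0.50). Cdca3, a trigger of mitotic entry, measured 8.41 and 8.23 in CTR and 3.48 and 3.61 in anti-PD-1 (-1.23 ± 0.44). Prc1, which organizes the central spindle, measured 10.6 and 12.1 in CTR and 5.02 and 5.18 in anti-PD-1 (-1.15 ± 0.35). In these 3 genes the replicates of each group agreed closely, and Nusap1 and Cdca3 are G2/M list members while Prc1 is in neither list. Pole, the catalytic subunit of DNA polymerase epsilon and also in neither list, measured 11.2 and 10.1 in CTR and 3.62 and 5.8 in anti-PD-1 (-1.16 ± 0.40). Rrm2, the inducible subunit of ribonucleotide reductase, measured 13 and 13.6 in CTR and 5.23 and 7.95 in anti-PD-1 (-1.01 ± 0.49). Melk (-1.18 ± 0.45), Prr11 (-1.02 ± 0.37) and Knstrn (-0.82 ± 0.34), outside the lists too, were among the 15 lowest genes. Top2a, by contrast, measured 40.8 and 35.9 in CTR and 14.4 and 36.4 in anti-PD-1, so that only replicate 1 was low.

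As with interferon genes, the count at an unadjusted p under 0.05 depended on the libraries in the fit. For G2/M it was 24 of 57 in a fit without the OAT-1746 libraries (3.59% of all tested genes) and 20 in a fit of only the anti-PD-1 and CTR libraries. It was 1 without anti-PD-1 replicate 1, 5 without CTR replicate 1 and 2 without CTR replicate 2. For S phase it was 15 of 47 without the OAT-1746 libraries and 8 in a fit of only the anti-PD-1 and CTR libraries. The shares of all tested genes were again 3.59% and 2.56%. The E2F sites TTTCCCGC and TTTGGCGC were in 4 and 5 of 35 S phase promoters (11.4% and 14.3%) against 0.929% and 0.437% of all promoters. Shares of tested genes alone were 1.85% and 0.814%. In the G2/M list 0 and 1 of 50 promoters (0% and 2%) held these sites. As for the interferon lists, these shares describe the lists and not the comparison of the groups. In the summed level of the S phase list CTR measured 1163 and 1073 CPM and anti-PD-1 856.7 and 1007. For G2/M the sums were 1101 and 1089 in CTR and 853.5 and 1017 in anti-PD-1.

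**Figure D4:**
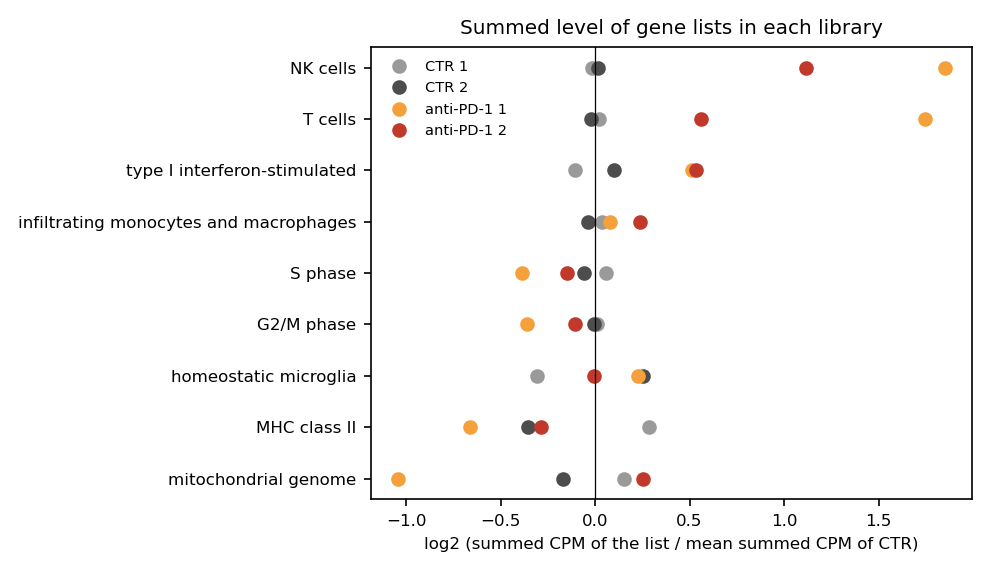
Log2 ratio of the summed CPM of 9 gene lists in each library to the mean of the 2 CTR libraries. NK cell, T cell and interferon-stimulated sums are higher in both anti-PD-1 libraries, S and G2/M sums are lower in both and lowest in replicate 1, and the microglia, MHC class II and mitochondrial genome sums overlap between the groups.

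PD-1 itself and its ligands did not separate the groups. Pdcd1, encoding PD-1, measured 4.75 and 8.88 CPM in CTR and 12.4 and 6.14 in anti-PD-1 (log2 fold change 0.44 ± 0.58). Cd274, encoding PD-L1, measured 227 and 144 in CTR and 126 and 278 in anti-PD-1 (0.13 ± 0.52). Pdcd1lg2, encoding PD-L2, measured 13.1 and 6.65 in CTR and 7.6 and 11.1 in anti-PD-1 (-0.07 ± 0.73). For these 3 genes the replicates of each group differed more than the group means, and leaving out 1 library turned the sign of each. The fold change of Pdcd1 was -0.14 without anti-PD-1 replicate 1. That of Cd274 was -0.17 without CTR replicate 2 and -0.56 without anti-PD-1 replicate 2, and that of Pdcd1lg2 was 0.49 without CTR replicate 1 and 0.17 without anti-PD-1 replicate 1. Of 12 genes of the receptor, its ligands and proximal signaling, 5 (41.7%) were higher in both anti-PD-1 libraries and 0 lower. Among members of at least 5 CPM, the largest fold change after that of Lck was in Fyn, a kinase of the same family. Fyn measured 30.2 and 30.6 in CTR and 64.2 and 47.4 in anti-PD-1 (0.87 ± 0.18). Rgmb, a further binding partner of PD-L2, measured 33.8 and 36.4 in CTR and 54.1 and 45.3 in anti-PD-1 (0.50 ± 0.18).

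Other checkpoint and costimulatory genes lay higher in both anti-PD-1 libraries for 13 of 28 (46.4%) and lower for 0, with a median log2 fold change of 0.24. Lag3, an inhibitory receptor of lymphocytes also transcribed in microglia, measured 152 and 149 CPM in CTR and 272 and 242 in anti-PD-1 (0.77 ± 0.30). Havcr2, encoding TIM-3, measured 150 and 155 in CTR and 182 and 183 in anti-PD-1 (0.25 ± 0.21). Cd47, the signal that restrains phagocytosis, measured 188 and 201 in CTR and 229 and 228 in anti-PD-1 (0.23 ± 0.26). In these 3 genes the difference between groups exceeded that between replicates, though for Havcr2 and Cd47 it was small. Ctla4 was not tested, with 6 and 2 counts in CTR and 5 and 3 in anti-PD-1.

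Lymphocyte genes are not typical of myeloid cells, but NK cells carry CD11b. Of 29 NK cell genes 25 (86.2%) were higher in both anti-PD-1 libraries, with a median log2 fold change of 2.25. A scarce gene could pass the low-count filter through the anti-PD-1 libraries alone, so the count of 25 can be partly set by that filter. The count was not repeated over the 14 genes with at least 10 counts in every library. The median was 1.6 over those 14 genes, and 1.62 over the list without anti-PD-1 replicate 1. The summed level of the whole list was 142.6 and 146.2 CPM in CTR and 520.6 and 313.5 in anti-PD-1, and the most abundant gene per kilobase was Gzma. T cell genes were scarcer and differed between the anti-PD-1 libraries. Of 22 tested, 10 (45.5%) were higher in both and 0 lower. At an unadjusted p under 0.05, 9 of these 22 were higher, against 3.18% of all tested genes. Their summed level was 21.32 and 20.65 in CTR and 70.45 and 30.94 in anti-PD-1. The median log2 fold change of 1.74 dropped to 0.17 without anti-PD-1 replicate 1, and to 0.36 over genes with at least 10 counts in every library. The latter filter left 5 of the 22 genes, of which 1 was higher at an unadjusted p under 0.05, against 3.02% of all tested genes. Without anti-PD-1 replicate 2 the median was 2.36.

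Members of the T cell list that NK cells also express were among those higher in both libraries. Cd247, the CD3ζ chain, measured 0.781 and 0.235 CPM in CTR and 3.28 and 1.69 in anti-PD-1. The adhesion receptor Cd2 measured 0.781 and 0.176 in CTR and 3.69 and 1.52 in anti-PD-1. Cd3e and the T cell receptor constant segments gave few counts, with most of them in anti-PD-1 replicate 1, which also had the largest NK cell sum. Cd3e had 1 and 0 counts in CTR and 4 and 1 in anti-PD-1, and the T cell receptor constant segments, which are not among the tested genes, 17 and 17 in CTR and 84 and 18 in anti-PD-1. Cd4, which macrophages can also transcribe, was the most abundant per kilobase and did not separate, at 8.23 and 7.35 in CTR and 7.67 and 6.31 in anti-PD-1. The part of lymphocytes in the differences of other gene groups was not tested.

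Of 12 tested genes of MHC class II, 0 were higher in both anti-PD-1 libraries and 2 (16.7%) lower, with a median log2 fold change of -0.31. H2-Ab1, the beta chain of I-A, measured 9000 and 5370 CPM in CTR and 3790 and 5360 in anti-PD-1 (-0.65 ± 0.41). CTR replicate 1 was far above the other 3 libraries, as in the summed level of the list (47100 and 30240 in CTR, 24450 and 31680 in anti-PD-1). The share of lower genes was that of all tested genes. MHC class I processing genes were higher in both for 7 of 22 (31.8%) and lower for 3 (13.6%). Scaled by library size only, 9 (40.9%) were higher, against 22.8% of all tested genes. The median of the MHC class I list was -0.07 in anti-PD-1 replicate 1 and 0.16 in replicate 2 against the CTR mean. Lower in both anti-PD-1 libraries were 12 of 28 genes of cholesterol synthesis and efflux (42.9%, or 9 when scaled by library size only) and 13 of 31 lysosomal hydrolases and cathepsins (41.9%, or 12). With that scaling, 14.4% of all tested genes were lower in both. The medians of the cholesterol and lysosomal lists were small, at -0.19 and -0.08.

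Apoe, the lipid carrier of microglia and macrophages, measured 2940 and 2330 CPM in CTR and 1790 and 1580 in anti-PD-1 (log2 fold change -0.65 ± 0.20). It was among the most abundant genes with no overlap, and was chosen by rule from the disease-associated microglia list, which was otherwise balanced with 4 higher and 4 lower of 21. Cyp51, of cholesterol synthesis, measured 49 and 43.6 in CTR and 31.5 and 32.5 in anti-PD-1 (-0.53 ± 0.17). Lipa, the lysosomal acid lipase that frees cholesterol, measured 344 and 351 in CTR and 237 and 269 in anti-PD-1 (-0.46 ± 0.17). In these 3 genes the groups differed by more than the replicates. Some other macrophage genes were lower in both, while their lists were mixed. The complement list had 2 higher and 5 lower of 19, and border-associated macrophages 2 and 3 of 17, and the infiltrating monocyte and macrophage list went the other way, as given above. C1qa, a chain of complement C1q, measured 5480 and 5860 in CTR and 4480 and 4310 in anti-PD-1 (-0.37 ± 0.17). Adgre1, encoding the macrophage marker F4/80, on none of the lists and picked after its values were seen, measured 987 and 1070 in CTR and 693 and 784 in anti-PD-1 (-0.48 ± 0.16). Ms4a7, a gene of macrophages, measured 305 and 306 in CTR and 141 and 212 in anti-PD-1 (-0.79 ± 0.52).

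Genes of arginine metabolism were near the background, with 4 of 20 (20%) higher in both anti-PD-1 libraries and 1 lower. The lower member was Slc7a1, an arginine transporter, at 62.2 and 63.1 CPM in CTR and 57.7 and 55.9 in anti-PD-1 (log2 fold change -0.14 ± 0.16). Gatm is not on that list. Nos2, the inducible nitric oxide synthase that uses arginine, measured 16.9 and 19.5 in CTR and 16 and 70.9 in anti-PD-1 (1.26 ± 0.91), so its fold change rested on replicate 2 and was -0.19 without it.

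Among housekeeping groups, 36 of 79 cytosolic ribosomal protein genes (45.6%) were lower in both anti-PD-1 libraries and 5 higher, with a median log2 fold change of -0.13. The count of 36 became 24 (30.4%, against 14.4% of all tested genes) when libraries were scaled by their size only. Rpl35 measured 437 and 393 CPM in CTR and 293 and 264 in anti-PD-1 (-0.58 ± 0.23), and Rpl39 went the other way, at 175 and 133 in CTR and 244 and 220 in anti-PD-1 (0.60 ± 0.21). Transcripts of the mitochondrial genome summed to 12670 and 10110 in CTR and 5535 and 13590 in anti-PD-1, so that replicate 1 was the lowest and replicate 2 the highest of the 4. Their median against the CTR mean was -1.06 in replicate 1 and 0.29 in replicate 2. Of 38 proteasome subunits 12 (31.6%) were higher and 9 (23.7%) lower. Scaled by library size only, 16 (42.1%) were higher and 6 (15.8%) lower, against 22.8% and 14.4% of all tested genes.

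**Figure D5:**
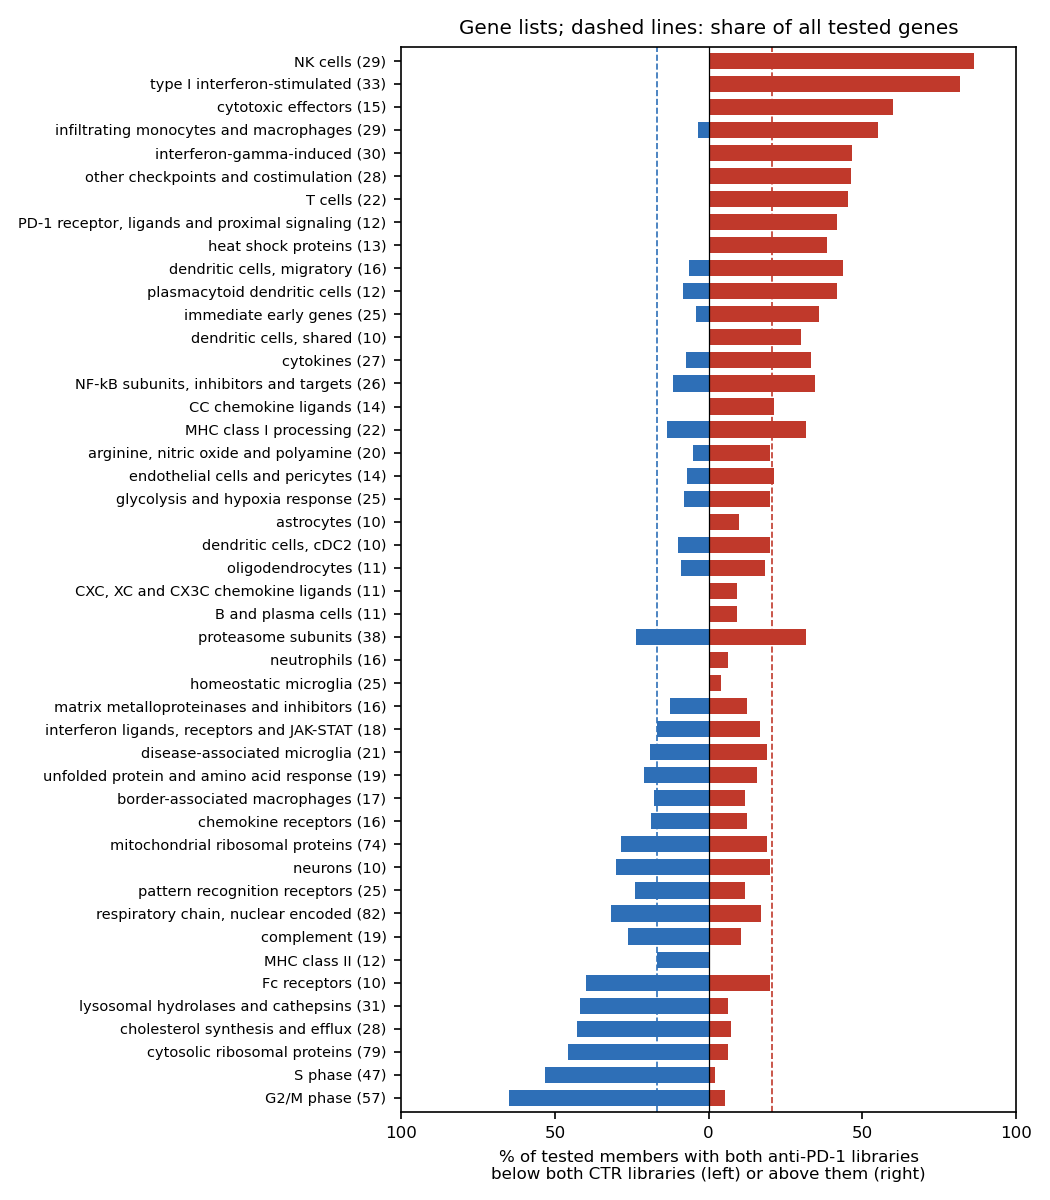
For each gene list with at least 10 tested members (number in parentheses), the share of members with both anti-PD-1 libraries above (red, right) or below (blue, left) both CTR libraries, with dashed lines at the shares of all tested genes (20.6% and 16.9%). NK cell and interferon-stimulated genes stand at one end, and S and G2/M phase genes at the other.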

How the data were processed

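RNA of CD11b+ cells was sequenced by the authors, who trimmed reads with Trimmomatic, aligned them with STAR and deposited HTSeq raw counts of read pairs per gene. The columns of the 2 CTR and 2 anti-PD-1 libraries were compared. Of 53801 genes, 53620 were annotated (181 not) and 21890 were protein-coding; filterByExpr (minimum count 10) left 12538. In R 4.3.3, edgeR 4.0.16 normalized by TMM and fitted all 9 libraries by quasi-likelihood with a mean for each group, and p-values were adjusted by Benjamini-Hochberg over all tested genes (threshold 0.05). The common coefficient of biological variation was 0.214. DESeq2 1.42.0 and voom in limma 3.58.1 were alternatives. Values are CPM with fold changes ± SE from edgeR. The steps were checked on simulated data.

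Named genes were the 15 highest and 15 lowest with a mean of at least 5 CPM, an unadjusted p under 0.05 and no overlap between groups, outside the NK list. To these were added up to 4 genes per list with the largest fold change and its most abundant member, fixed genes (including Pdcd1, Cd274, Pdcd1lg2, Nos2, Ifng) and the genes DESeq2 called. Itgam, Csf1r and further members that illustrate a list were chosen after their values were seen. The members and lists were chosen with earlier results of these data known. Lists were described by counts and medians only. Alternatives were other scalings, filters and gene types, a replicate block, fewer groups in the fit, robust estimation and leaving out each replicate. P-values measure only the spread between these libraries. Python 3.11.15 with matplotlib 3.10.9 drew the figures.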

Additional observations from a re-analysis of the deposited data

Results flagged for a closer look

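Segments of antigen receptor genes are not protein-coding in the annotation and were outside the comparison. The T cell receptor constant segments summed to 17 and 17 counts in CTR, 84 in anti-PD-1 replicate 1 and 18 in replicate 2. Scaled to the library total, in CPM, this was 0.972 and 0.959 in CTR against 5.85 in anti-PD-1 replicate 1 and 0.958 in replicate 2, and the first of these stood out as more than 2-fold above the highest CTR library. Trbc2 gave 23 counts and Trac 28 of the 84. The immunoglobulin variable segments stood out in the same library by the same measure, at 6.76 CPM against 2.52 and 0.846 in CTR, while anti-PD-1 replicate 2 had 1.81. The sums of the other segment classes did not stand out by that measure. Some single immunoglobulin constant genes did in anti-PD-1 replicate 1. Igha was at 3.69 CPM against 1.03 and 1.07 in CTR, and Igkc at 6.41 against 3.09 and 1.3. Ighg2c had 11 counts against 0 in each CTR library. Ighm, the source of most counts of the class, did not stand out, nor did Ighg2b and Ighd. Immunoglobulin constant segments were at 147 and 249 CPM in CTR and 242 and 171 in anti-PD-1, and T cell receptor variable segments at 0.743 and 0.169 in CTR and 1.18 and 0.266 in anti-PD-1. In the COMB libraries, whose mice also received the antibody, the immunoglobulin variable segments were at 1.46, 4.96 and 16.7 CPM, so that COMB replicate 3 exceeded anti-PD-1 replicate 1. The T cell receptor constant segments were at 2.45, 1.61 and 2.43 CPM in COMB, above both CTR libraries and below anti-PD-1 replicate 1. Among the anti-PD-1 libraries the signals of the T cell receptor constant and immunoglobulin variable sums were limited to replicate 1. That library had the largest T cell and NK cell list sums as well, and the cells that gave these segments were not identified.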

How the results depend on the processing

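edgeR and voom called 0 genes under every alternative, with 642 at an unadjusted p under 0.05 in the reported fit, while DESeq2 called 14, or 9 without the low-count filter. The higher and lower genes at an unadjusted p under 0.05 numbered 191 and 72 with the replicate number as a block, and 251 and 118 with the replicates of CTR and anti-PD-1 crossed in that block, an alternative chosen after seeing the data. Without the OAT-1746 libraries the lower genes numbered 442. Without 1 replicate, where the lone library is assumed to vary like the other groups, the higher genes ranged from 239 to 443 and the lower from 96 to 354. The median log2 fold change then ranged from 0.17 to 2.36 for T cells, 0.34 to 0.76 for infiltrating monocytes and macrophages, -0.65 to -0.14 for S phase and -0.84 to -0.33 for G2/M. For T cells it was 0.36 with at least 10 counts in every library, which left 5 of the 22 genes. When 1 replicate was left out, the interferon-stimulated median ranged from 0.36 to 0.61.

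Of the named genes, 10 reversed their sign when 1 replicate was left out, none of them called. Their log2 fold changes ranged from -0.56 to 0.59 for Cd274, -0.12 to 0.20 for Csf1r, -0.65 to 0.74 for Ifi44 and -0.25 to 0.03 for Itgam. The ranges were -0.19 to 1.96 for Nos2, -0.47 to 0.27 for P2ry12, -0.14 to 0.95 for Pdcd1, -0.49 to 0.49 for Pdcd1lg2, -0.27 to 0.53 for Tmem119 and -0.53 to 0.13 for Tnf. With voom, Pdcd1lg2 was at 0.01. The cause was not tested. List counts by side and by setting were tabulated after the data were seen. With 14356928 to 18796479 counts per library, genes below 1 CPM rest on few reads.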

Other observations

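Genes of brain and vascular cells, which a CD11b sort should deplete, were still detected. The sums of the oligodendrocyte and astrocyte lists overlapped between the groups, and those of the endothelial and pericyte list did not. Oligodendrocyte genes summed to 342.9 and 443.7 CPM in CTR and 487.4 and 373.8 in anti-PD-1. Astrocyte genes summed to 123.6 and 167.9 in CTR and 146.3 and 138.1 in anti-PD-1. Endothelial and pericyte genes summed to 203.8 and 165.2 in CTR and 293.4 and 215.8 in anti-PD-1, higher in both anti-PD-1 libraries, with a median log2 fold change of 0.40 that was 0.72 in replicate 1 and -0.30 in replicate 2 against the CTR mean. Genes of migratory dendritic cells were higher in both anti-PD-1 libraries for 7 of 16 (43.8%, against 20.6% of all tested genes) and lower for 1. This list holds genes of other cells too. Serpinb6b, the 1 member that DESeq2 called, is also on the NK cell list, and Ccl5 is made by T cells and NK cells. Ccr7, the lymph node homing receptor of migratory dendritic cells, measured 22.6 and 28.3 in CTR and 54.6 and 42.6 in anti-PD-1 (0.93 ± 0.42).

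Genes of the unfolded protein and amino acid response were split, with 3 of 19 higher and 4 lower in both anti-PD-1 libraries. Atf4, the factor that coordinates that response, measured 109 and 109 CPM in CTR and 146 and 176 in anti-PD-1 (log2 fold change 0.56 ± 0.18). Its target Ddit3 measured 16.2 and 18.7 in CTR and 23.1 and 26.3 in anti-PD-1 (0.50 ± 0.17). Another target, the cystine transporter Slc7a11, ran the other way, at 51.1 and 39.3 in CTR and 12.5 and 34.9 in anti-PD-1 (-0.92 ± 0.63). None of these was called by edgeR or DESeq2.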
